A study of Mus musculus with 3 samples.

Results

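RNA levels of 10 genes of dying-cell clearance by macrophages (efferocytosis) were described in skin-resident macrophages during the resting phase of the mouse hair cycle. Clearance itself was not measured. The genes were the receptor tyrosine kinases Mertk, Axl, and Tyro3, the bridging molecules Gas6, Pros1, and Mfge8, the phosphatidylserine receptors Timd4 and Stab2, the engulfment adaptor Elmo1, and the inhibitory receptor Sirpa. They were chosen by name, and were found through the RefSeq transcript of each probe, among 19752 genes with a symbol on the array. They were represented by 11 probes, 1 each except for Tyro3, which had 2. The study compared F480+CD11b+Gr1- macrophages sorted by FACS from backskin of CD1 mice at 3 stages of telogen that precede the next growth phase, named early (Te), mid (Tm), and late (Tl). The labels place these stages at postnatal days 42, 55, and 69 (the study's text gives a later day for Te) and name no other allele or treatment. At each stage RNA from 3 littermates was pooled, went through whole transcriptome amplification, and was hybridized in 1 color (Cy3), so that each stage is 1 array. There are no replicates, the spread between mice is unknown, and no test is given.

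A dying cell exposes phosphatidylserine (PtdSer), a lipid that living cells keep on the inner side of the membrane. Macrophages recognize it directly through receptors such as Timd4 and Stab2, or through soluble bridges. Gas6 and protein S (Pros1) bind PtdSer and activate the TAM kinases Tyro3, Axl, and Mertk, whereas Mfge8 joins PtdSer to the integrins αvβ3 and αvβ5. Elmo1 acts with Dock proteins to activate Rac and to reorganize actin around the corpse. Sirpa, in contrast, is engaged by Cd47 on living cells and restrains uptake. The study describes dying macrophages during telogen, and the question here is how the machinery that takes up such cells was expressed in the sorted population.

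Compared with Te, both later arrays had at least 2-fold higher values for 2 uptake genes, Axl and Mfge8. The 250 bases upstream of their annotated starts are shown for this reason. The sequences are from RefSeq (GRCm38.p6) and are written 5′ to 3′ on the strand of the gene, which is the minus strand for both, at chr7:79149061-79149310 for Mfge8 and chr7:25788734-25788983 for Axl. Capitals mark letters that match a searched motif.
Mfge8 promoter: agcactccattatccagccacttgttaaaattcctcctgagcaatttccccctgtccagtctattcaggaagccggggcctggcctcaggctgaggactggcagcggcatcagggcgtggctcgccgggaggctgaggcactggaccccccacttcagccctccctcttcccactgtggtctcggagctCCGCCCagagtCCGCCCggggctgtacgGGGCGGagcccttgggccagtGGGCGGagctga
Axl promoter: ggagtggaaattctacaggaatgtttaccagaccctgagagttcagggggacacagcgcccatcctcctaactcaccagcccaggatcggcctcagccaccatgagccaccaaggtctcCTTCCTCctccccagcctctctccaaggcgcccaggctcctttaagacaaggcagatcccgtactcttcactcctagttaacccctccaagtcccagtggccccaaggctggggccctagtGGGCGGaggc
The motifs, searched on both strands, were those of PU.1 (GAGGAAG), Sp1 (GGGCGG), and AP-1 (TGANTCA), and no marked matches overlap. Mfge8 held 4 Sp1 matches, which began 61, 50, 33, and 12 bases before the start. Axl held 1 Sp1 match at 10 bases and 1 PU.1 match at 131 bases before the start. The Sp1 letters were in 7 of the 10 available promoters of the uptake genes (9 genes, of which Elmo1 has 2 promoters) and in 32.7% of all 32851 mouse promoters of this length. The PU.1 letters were in the Axl promoter alone of these 10 and in 10.6% of all promoters. The AP-1 letters were in none of the 10, and in 6.75% of all promoters. The G+C content was 65.2% for Mfge8 and 60.0% for Axl, against a median of 52.4% over all promoters. These matches describe the letters in the windows and not the binding of a factor.

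The level of a gene is given as log2 of the processed signal relative to the 75th percentile of all probes of the array, so that 0 is the brightness that 75% of probes do not reach. All 10 genes were well above background on all 3 arrays, as were 13078 of 19752 genes (66.2%). The share of probes well above background was 71.4% at Te, 59.6% on the Tm-deposited array, and 68.7% on the Tl-deposited array, and no spot was saturated. Error could be measured only between spots of the same probe. Its median SD was 0.108 to 0.126 on the log2 scale, which gives 0.332 and 0.347 as 2 times the SD of a difference between Te and the Tm- or Tl-deposited array. This SD comes from probes with at least 10 spots, whereas each uptake probe has 1 spot. Some probes were noisier, with a 90th percentile of the SD of 0.316 at Te and 0.249 on both later arrays. The authors' table of processed values assigns the Tm and Tl arrays the other way round, and 99.8% to 99.9% of its probes match the opposite scanner file within 0.05. The arrays are therefore called Tm-deposited and Tl-deposited, after the stage of the sample that holds the scanner file, and each statement on Tm or Tl changes place if the table is right. Both later arrays are compared with the same Te array, so their changes are not independent. The sort was checked on its defining genes. Adgre1, which encodes the F480 antigen, had levels of 4.83, 5.51, and 5.15 at Te and on the Tm- and Tl-deposited arrays. Its other probe differed from Te by 0.35 and 0.12. Itgam, which encodes CD11b, had levels of 8.95, 8.73, and 7.85, and so was more than 2-fold lower on the Tl-deposited array (-1.10). Its other probes differed from Te by -1.06 and -1.08 on the Tm-deposited array, and by -0.79 and -0.13 on the Tl-deposited array. Ly6g was not matched to a probe. In sorted bulk cells, fewer cells of a type and less RNA per cell cannot be told apart.

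**Figure D1:**
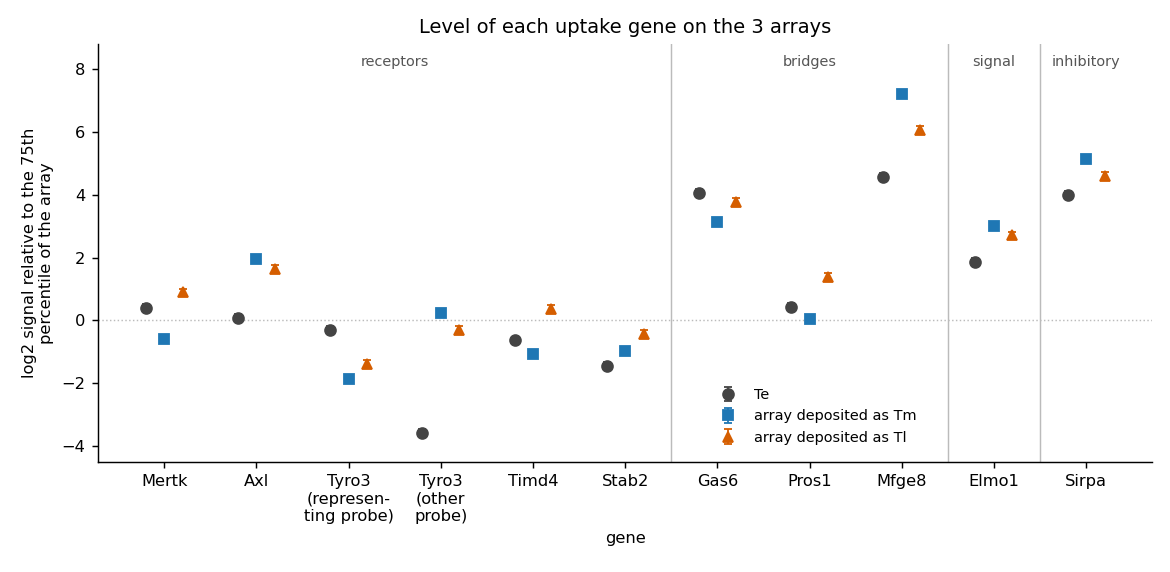
Level of each uptake gene (log2 signal relative to the 75th percentile of the array) on the 3 arrays, 1 point per array, with bars of 1 median SD of repeated spots (smaller than most symbols). Axl and Mfge8 sit lowest at Te, and the 2 probes of Tyro3 go in opposite directions. Different probes are not comparable in level, so only the 3 points of a probe should be compared.

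Of the TAM receptors, Axl was higher on both later arrays, Mertk was lowest on the Tm-deposited array, and Tyro3 could not be settled. Axl, the TAM kinase that responds to Gas6 and that inflammatory stimuli induce, had levels of 0.08 at Te, 1.95 on the Tm-deposited array, and 1.64 on the Tl-deposited array. It was thus 3.64-fold and 2.95-fold higher than at Te, and the 2 later arrays differed by -0.30, within 2 times the SD of repeated spots (0.321). These changes were above those of 90.6% and 90.4% of genes.

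Mertk, the TAM kinase most closely tied to the uptake of apoptotic cells by resident macrophages, had levels of 0.39, -0.61, and 0.89. On the Tm-deposited array it was 1.99-fold lower than at Te, just short of the 2-fold limit, and on the Tl-deposited array it was 1.42-fold higher. The difference between the later arrays was the largest of the 10 genes in either direction, at 2.83-fold, and was above that of 97.0% of genes. Mertk and Axl therefore ran in opposite directions from Te to the Tm-deposited array, and in the same direction from Te to the Tl-deposited array.

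Both probes of Tyro3, the third TAM kinase, are assigned to the same transcript (NM_019392), yet they moved apart. The probe that represents the gene here, by its slightly higher mean of the 3 log2 levels (-1.18 against -1.23), had signals of 335, 137, and 354 on the linear scale and levels of -0.30, -1.86, and -1.39. It was 2.93-fold and 2.12-fold lower than at Te. The other probe, which was dimmer at Te but brighter on both later arrays, had signals of 34.2, 579, and 750 and levels of -3.60, 0.22, and -0.31, which is 14.1-fold and 9.78-fold higher. Both probes were called well above background on all arrays, so the call sets neither aside. At Te, however, the other probe lay only 0.84 above the lowest detected level on the log2 scale, against 4.14 for the representing probe. The large fold changes of the other probe rest on this dim Te value. The direction of Tyro3 is open between its probes, and any count below that includes it rests on this narrow choice.

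Among the bridges, Mfge8 was higher on both later arrays, whereas Gas6 and Pros1 were not. Mfge8, or lactadherin, had processed signals of 9864 at Te, 72699 on the Tm-deposited array, and 62007 on the Tl-deposited array. Its levels were 4.57, 7.19, and 6.06. The increase was 6.14-fold on the Tm-deposited array, the largest change of the 10 genes by their representing probes, and above that of 97.1% of genes. On the Tl-deposited array it was 2.81-fold, above that of 89.3% of genes. Mfge8 was also the only uptake gene at least 2-fold lower on the Tl-deposited array than on the Tm-deposited array, by 2.19-fold.

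Gas6, the ligand of all TAM kinases, had levels of 4.06, 3.12, and 3.79. It was 1.92-fold lower than at Te on the Tm-deposited array. On the Tl-deposited array the difference of -0.27 was within 2 times the SD of repeated spots, the only such case among the 20 changes from Te. Pros1, protein S, the ligand of Mertk and Tyro3, had levels of 0.42, 0.03, and 1.39. It differed from Te by -0.38 on the Tm-deposited array and by 0.98 on the Tl-deposited array, the latter 1.97-fold. The receptor and ligand values can be read side by side. On the Tm-deposited array Axl was higher while Gas6 differed from Te by -0.94, and Mertk and Pros1 were both at their lowest on the Tm-deposited array and at their highest on the Tl-deposited array.

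The direct PtdSer receptors were measured above background on all arrays. Timd4 (Tim-4), a tethering receptor of resident macrophages, had levels of -0.64, -1.08, and 0.36. The change from Te was -0.44 on the Tm-deposited array and 1.99-fold higher on the Tl-deposited array, just under the limit. Stab2 (stabilin-2), a scavenger receptor best known from sinusoidal endothelium, had levels of -1.45, -0.97, and -0.43 and was 1.39-fold and 2.02-fold higher than at Te. The latter value lies just over the limit. On the Tl-deposited array, Stab2 (1.02 on the log2 scale), Timd4 (0.9954), and Pros1 (0.975) thus differed by less than the error of repeated spots, although only Stab2 is counted.

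Elmo1, the adaptor that brings Dock proteins to the membrane, had levels of 1.87, 3.00, and 2.71, and was 2.19-fold and 1.79-fold higher than at Te. Sirpa, the inhibitory receptor, had levels of 3.99, 5.15, and 4.59, and was 2.24-fold and 1.52-fold higher. Both were highest on the Tm-deposited array and in between on the Tl-deposited array. The gene of the ligand of Sirpa, Cd47, differed from Te by 0.07 and 0.18, within 2 times the SD of repeated spots, and its other probe by 0.10 and 0.60, of which the latter is past it. Genes with opposite roles in uptake, Elmo1 in its execution and Sirpa in its restraint, therefore had changes of similar size.

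From Te to the Tm-deposited array, 4 of the 10 genes were at least 2-fold higher (Axl, Mfge8, Elmo1, and Sirpa) and 1 was lower (Tyro3, by its representing probe). Among the 15843 genes with a value, 29.1% were higher and 16.9% lower by that limit. The median change was 0.05 for the uptake genes and 0.22 for all genes. All 10 changes exceeded 2 times the SD of repeated spots, which is a median over other probes and not the error of these genes. From Te to the Tl-deposited array, 3 were higher (Axl, Mfge8, and Stab2) and 1 was lower (again Tyro3), where 22.2% and 20.7% of 16164 genes were. The median was 0.91 for the uptake genes and 0.15 for all genes, and 8 of 10 genes were above 0, as were 54.7% of all genes. On both later arrays, 2 of 10 genes were at least 2-fold higher (Axl and Mfge8) against 16.6% of 15602 genes, and 1 was lower (Tyro3) against 11.3%. None of the 10 reached the 10-fold limit that the study's methods name, by their representing probes, and 1.44% and 1.13% of genes did in the respective comparisons. The shares of uptake genes past 2-fold were thus near those of all genes, and these counts do not set the 10 genes apart.

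**Figure D2:**
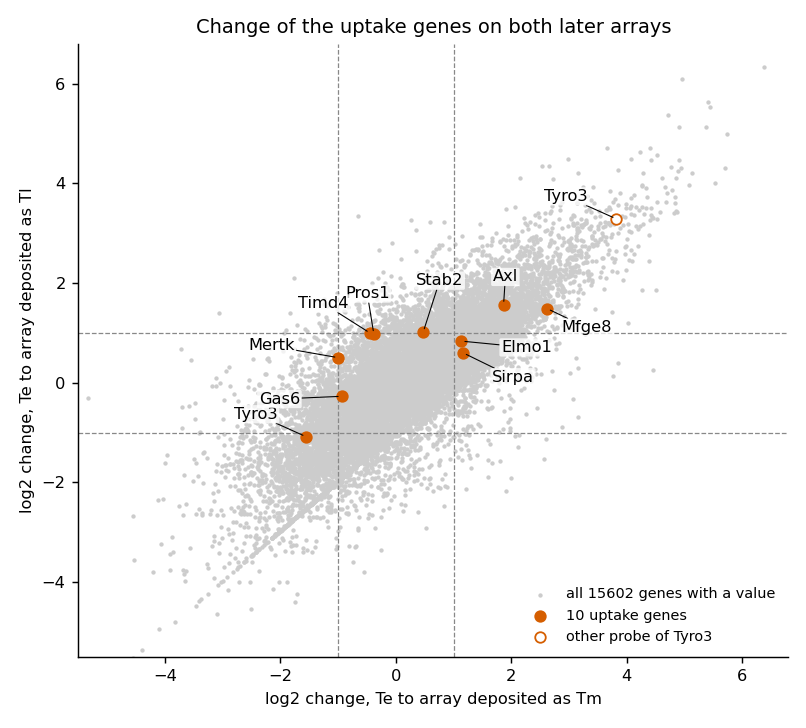
Log2 change from Te to the Tm-deposited array (horizontal) and to the Tl-deposited array (vertical) of all 15602 genes with both values (grey) and of the 10 uptake genes (orange), with the other Tyro3 probe as an open circle and dashed lines at 2-fold. Axl and Mfge8 lie in the upper right field and the representing Tyro3 probe in the lower left. Both axes share the Te array, so the slope of the grey cloud is not a result, and its straight lower edge holds genes measured only as bounds.

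The later arrays differed from each other in a subset of these genes. From the Tm-deposited array to the Tl-deposited array, Mertk (2.83-fold), Timd4 (2.71-fold), and Pros1 (2.56-fold) were at least 2-fold higher, as were 7.85% of 14846 genes. Mfge8 was lower, as were 11.3% of genes. Stab2 (0.54), Gas6 (0.67), and Tyro3 (0.47) were also above 0, by less than 2-fold. The median was 0.51 for the uptake genes and -0.15 for all genes, and 6 of 10 genes were above 0, as were 42.7% of all genes. The direction of this comparison is exactly the one that turns if the authors' table gives the true assignment of the 2 arrays.

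Levels from 1 array per stage depend on how the arrays are scaled to each other. The change of Mfge8 ranged from 2.25 to 3.18 (Tm-deposited array) and from 1.28 to 2.65 (Tl-deposited array) over the 9 settings compared, and that of Axl from 1.49 to 2.42 and from 1.36 to 2.73. These 2 genes stayed more than 2-fold higher on both arrays in all of these settings. Only the other scalings and the normexp correction could move them, however. The settings for the detection filter, the outlier spots, and the choice of probe left their values unchanged or almost so. Elmo1 and Sirpa reached down to 0.65 and 0.53 on the Tm-deposited array, under quantile normalization. Mertk stayed below 0 on the Tm-deposited array (-1.37 to -0.44) and above 0 on the Tl-deposited array (0.30 to 1.67). Timd4 and Pros1 on the Tm-deposited array turned to 0.11 and 0.18 under median scaling, and Gas6 on the Tl-deposited array reached 0.89 without scaling. Of the 20 changes from Te, 15 kept their sign in all 9 settings, although the filter and outlier settings could hardly move any of them. By the 75th percentile, 63.3% (Tm-deposited array) and 51.7% (Tl-deposited array) of the genes past 2-fold were higher. This split was 42.9% and 39.4% with the percentile taken over probes detected on all arrays, 68.1% and 67.6% after quantile normalization, 85.5% and 78.9% with the median, and 75.7% and 94.3% without scaling.

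**Figure D3:**
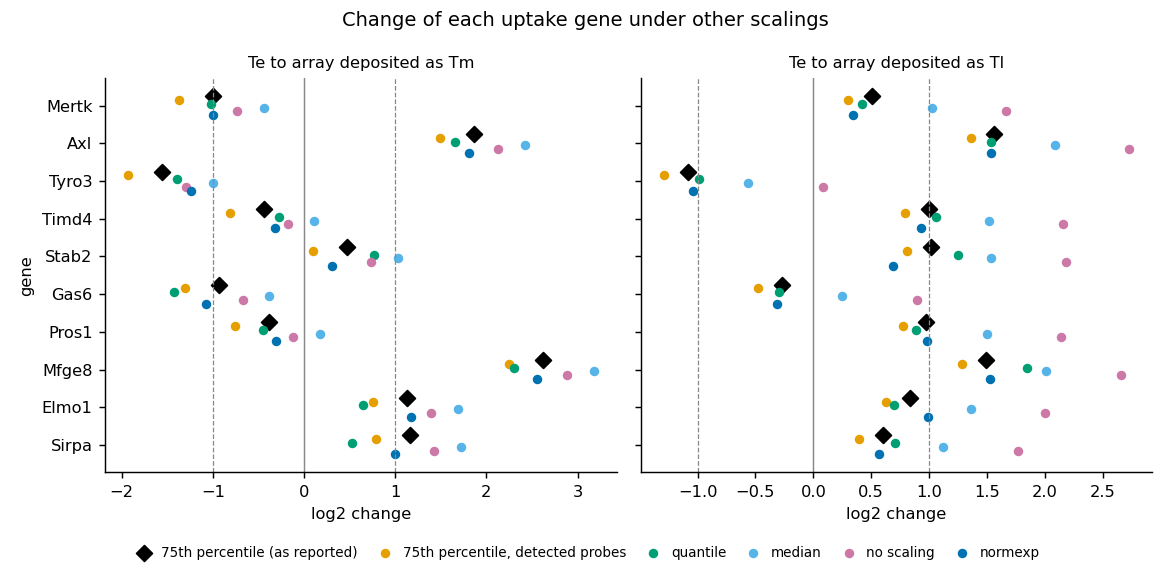
Log2 change of each uptake gene from Te to the Tm-deposited array (left) and as Tl (right) under the reported scaling (black diamonds) and 5 other treatments of the signals (colored points), with dashed lines at 2-fold. Axl and Mfge8 lie to the right of the 2-fold line in all of them. Tyro3 is plotted by its representing probe, and lies left of 0 except without scaling on the right, at 0.079.

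The other genes of the uptake pathway were examined by lists, each with its count beside the shares of all genes given above. Of 17 further PtdSer and opsonin receptors with a value, 2 were higher and 3 lower on the Tm-deposited array, and 3 were higher and 3 lower on the Tl-deposited array, with medians of -0.37 and -0.29. Havcr2 (Tim-3), a relative of Timd4 that binds PtdSer, was higher by 3.04 and 2.91. Trem2, a receptor for lipids and apolipoproteins, was higher by 1.85 and 1.08. On the lower side were Lrp1 (-1.03 and -1.03), a receptor for calreticulin on dying cells, and the scavenger receptor Msr1 (-1.62 and -1.08). Jmjd6, first described as a PtdSer receptor and now known as a nuclear oxygenase, was lower as well (-1.57 and -1.97). The receptor lists thus held large changes in both directions.

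Of 10 other bridging and opsonin molecules, 3 were higher and 2 lower on the Tm-deposited array, and 1 was higher and 2 lower on the Tl-deposited array (medians -0.16 and -0.57). C1qb, a chain of the complement component C1q that opsonizes dying cells, was lower by -1.07 and -1.18. The other chains, C1qa (-0.56 and -0.57) and C1qc (-0.13 and -0.56), did not reach the 2-fold limit. Anxa1 (annexin A1), a PtdSer-binding protein, was higher by 1.77 and 1.75, and its other probe differed by 0.44 and 0.60. Among 9 find-me signals and their receptors, 2 were higher and 2 lower, then 0 and 3, with medians of -0.51 and 0.33. Sphk1, the kinase that makes sphingosine 1-phosphate, was lower by -1.02 and -1.16, although its other probe gave 0.48 and -0.18.

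Engulfment signaling, downstream of the receptors and around Elmo1, had 17 genes with a value. Of these, 5 were higher and 1 lower on the Tm-deposited array, and 4 were higher and 1 lower on the Tl-deposited array, with medians of 0.65 and 0.26. Dock5, a Rac exchange factor that partners with Elmo proteins, was higher by 4.07 and 4.50, from a low level of -3.21 at Te. The other Dock genes of the list did not share changes of this size. Dock1 differed by 0.40 and 1.41, and Dock2 by -0.56 and -0.25 (-1.89 and -1.28 by its other probe). The adaptor Crkl was higher by 1.59 and 1.08 and the kinase Abl1 by 2.03 and 1.46 (1.68 and 0.88 by its other probe). Gulp1, an adaptor of engulfment receptors, was lower by -1.58 and -2.03. Of 15 genes of phagosome maturation and LC3-associated phagocytosis, 4 were higher and 1 lower, then 2 and 1 (medians 0.38 and 0.32). In this list Atg5, needed to attach LC3 to membranes, was higher by 1.23 and 1.68. Cybb, the catalytic subunit of the phagocyte NADPH oxidase, was lower by -1.95 and -1.30. Of 10 genes of cholesterol efflux, which follows the digestion of corpses, 2 were higher and 1 lower, then none in either direction (medians 0.56 and 0.33).

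The inhibitory pairs around Sirpa had 3 of 10 genes higher and 2 lower on the Tm-deposited array, and 4 higher and 1 lower on the Tl-deposited array, with medians of -0.20 and 0.05. The phosphatases Ptpn6 (SHP-1) and Ptpn11 (SHP-2), which bind to the phosphorylated tail of Sirpa, were both higher, by 1.95 and 1.33 and by 1.49 and 1.54. Cd24a, another do-not-eat-me signal, was higher by 1.45 and 1.40. Its lectin partner Siglecg was lower by -1.40 and -3.29. Of 9 genes of PtdSer exposure in the dying cell itself, 2 were higher and 1 lower, then 3 and 0 (medians 0.81 and 0.85). Of 10 genes that regulate the TAM receptors, 3 were higher and 2 lower, then 1 and 1 (medians 0.14 and -0.40). The protease Adam10, which sheds receptor ectodomains, was higher by 1.20 and 1.69.

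**Figure D4:**
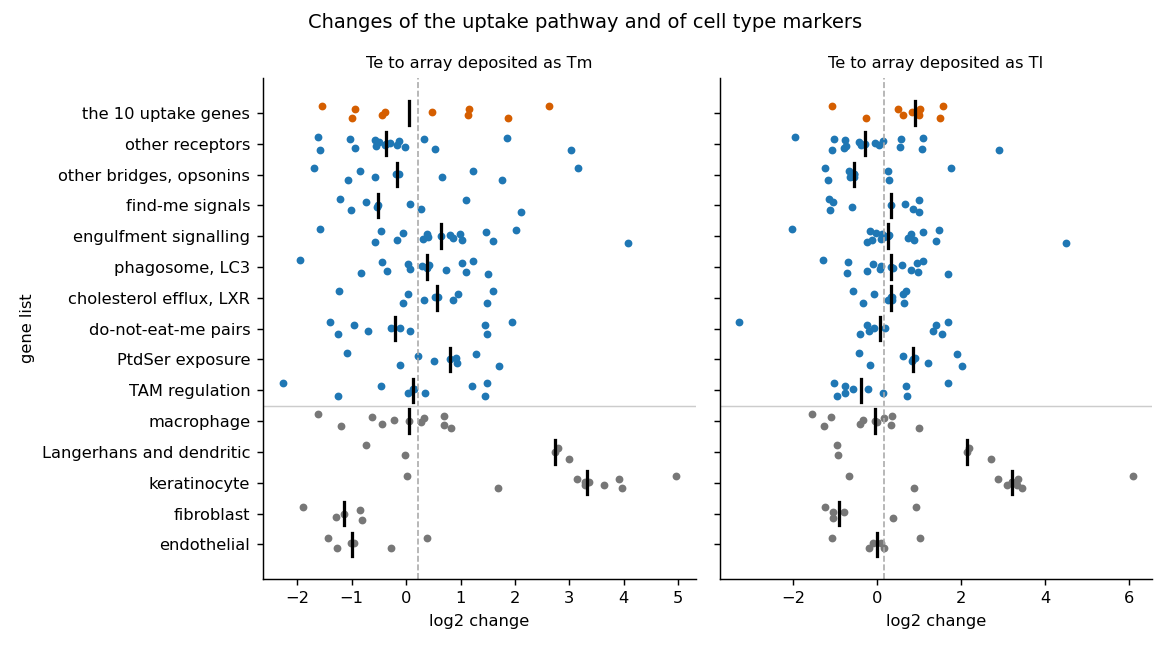
Log2 change from Te to the Tm-deposited array (left) and as Tl (right) of the 10 uptake genes (orange), of the other genes of the pathway by list (blue), and of cell type markers (grey), 1 point per gene, with black bars at list medians and a dashed line at the median of all genes (0.22 and 0.15). The keratinocyte markers stand apart, with medians of 3.33 and 3.22, and the uptake genes spread over both sides of 0 on the left.

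Markers of several cell types also differed between the arrays. Macrophage markers, of which 11 of 12 were matched, had no gene at least 2-fold higher on either array, 2 lower on the Tm-deposited array and 3 on the Tl-deposited array, with medians of 0.06 and -0.06. Ptprc (CD45) was lower by -1.62 and -1.27 and Cd163 by -1.19 and -1.55. Keratinocyte markers were at least 2-fold higher in 9 and 8 of 10 genes. The median level of the keratinocyte list was 0.17 at Te, 3.63 on the Tm-deposited array, and 3.51 on the Tl-deposited array, and its summed signal (in units of the 75th percentile) was 272, 394, and 263. A single Trp63 probe gave most of that sum, and the other probe of Trp63 changed by 3.15 and 4.04. Lor was higher by 4.96 and 6.09, Krt15 by 3.91 and 3.35, and Perp by 3.64 and 3.46.

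Of 5 Langerhans and dendritic cell markers, 3 were higher on both arrays, namely Cd207 (2.99 and 2.13), Epcam (2.80 and 2.71), and Itgax (2.73 and 2.17). The other markers of this list, Cd74 (-0.02 and -0.96) and Flt3 (-0.73 and -0.93), were not. The summed signal of the list was 346, 467, and 257, most of it from Cd74, and its median level was 1.58, 4.31, and 3.98. In each of these lists the markers were well above background on all arrays, and none was at 0. Axl and Mfge8 were high on the same 2 arrays as the keratinocyte and the Langerhans and dendritic markers, and the part of these cells in their values was not tested. T cell markers were higher in 2 and 3 of 5 genes, with summed signals of 3.72, 10.3, and 6.77. Among them was Cd3e (4.20 and 3.08), from a low level of -2.76 at Te. The other CD3 chains did not share changes of this size, with Cd3d at 0.71 and -0.17 and Cd3g at 0.71 and 1.03. Lck was below Te on both arrays (-0.78 and -0.69).

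Fibroblast markers moved the other way on the Tm-deposited array, with 3 of 5 lower and none above 0. On the Tl-deposited array they were mixed, with 3 of 6 lower and 2 above 0. The summed signals were 91.2, 42.6, and 46.2. Dcn was lower by -1.88 and -1.06 and Col3a1 by -1.15 and -1.05. Lum differed by -1.29 and 0.37, and Pdgfra, detected only on the Tl-deposited array, was higher there by at least 0.91. Endothelial markers, which bear on Stab2 and Pros1, had 3 of 6 genes lower on the Tm-deposited array, and 1 higher and 1 lower on the Tl-deposited array. The gene lower on both was the receptor Tek (-1.44 and -1.09). From the Tm-deposited array to the Tl-deposited array, 3 of the 6 endothelial markers were at least 2-fold higher (Cdh5, Kdr, and Emcn, by 1.30, 1.41, and 1.09) and 5 were above 0, although the other probe of Kdr gave 0.55. The summed endothelial signal was 20.5, 12.0, and 18.5. Fibroblast markers rose between these 2 arrays as well, with 5 of 6 above 0, 1 at least 2-fold higher (Lum, 1.66), and a median of 0.31. Mertk, Timd4, and Pros1 were higher between the same 2 arrays, and the part of endothelial cells or fibroblasts in this was not tested. The median change of 10 housekeeping genes was 0.65 on the Tm-deposited array and -0.01 on the Tl-deposited array. Of these 10, 3 were at least 2-fold higher on both later arrays, and 1 was at least 2-fold lower on the Tl-deposited array. These reference genes were therefore not all stable between the arrays.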

How the data were processed

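Macrophage RNA was hybridized to 1 Agilent array per stage, and the authors quantified the images with Feature Extraction 10.7.3.1 (per the file headers and the submitters' processing notes). They deposited spot intensities on a linear scale, background-corrected by that software and not scaled between arrays. A second deposited file is a table of log2 values (36409 probes) centered on the median of each probe, whose column medians are 0.36 (Te), 0 (Tm), and 0 (Tl). This table holds 9 of the 10 genes (not Gas6) and was used as an alternative. With its Tm and Tl columns exchanged, its differences from Te match those computed here, with median offsets of 0.0008 and 0.004. It therefore does not give a different scaling between the arrays. The normalization behind it is not given in the sources used here.

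From the intensities, control and outlier spots were removed, and the mean over spots was taken per probe. Levels are log2 processed signals minus the 75th percentile of the array. Detection required the software's well-above-background call in a share of 0.5 or more of the spots. Where 1 of 2 arrays was dim, the change is a lower bound against the lowest detected signal of that array. A gene was represented by the probe with the highest mean of the 3 log2 levels, and 26056 of 55681 probes had a symbol through RefSeq (GRCm38.p6). Analyses used Python 3.11.15, numpy 2.4.6, pandas 2.3.3, R 4.3.3, and limma 3.58.1 (normexp, offset 50), and were tested on simulated data. A change was counted from 2-fold, as a description without a test, since 1 array per stage allows none and the number of arrays limits the precision. The slide was the same for all arrays and is no variable here.

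The members and gene lists were chosen with earlier results of these data known. The named genes are the 10 members, the defining genes of the sort, and up to 3 list genes per direction with the largest change of at least 2-fold on both later arrays. The value of 1 gene that this rule names is not reported here. Cd47, Cdh5, Kdr, Emcn, Trp63, Cd74, Flt3, Cd3d, Cd3g, Lck, Lum, Pdgfra, C1qa, C1qc, Dock1, and Dock2 were named after their values were seen. No probe was matched for Elmo2, Cd68, Zbtb46, Trbc2, or Ly6g. Markers of neutrophils, mast cells, and melanocytes were also computed. Of 3 neutrophil markers with a value none passed 2-fold, of 4 mast cell markers 1 was lower on each later array, and of 5 melanocyte markers 3 were higher on the Tm-deposited array, and 2 higher and 1 lower on the Tl-deposited array.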

Additional observations from a re-analysis of the deposited data

How the results depend on the processing

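The counts of uptake genes at least 2-fold higher and lower than at Te were 4 and 1 on the Tm-deposited array and 3 and 1 on the Tl-deposited array. On the Tm-deposited array they were 2 and 3 with the 75th percentile taken over probes detected on all 3 arrays and after quantile normalization. The count lower there was 2 with normexp and 0 with median scaling. On the Tl-deposited array, 8 genes were higher and 0 lower both with median scaling and without scaling, and 0 were lower after quantile normalization. With the median over a gene's probes, or with the other Tyro3 probe (chosen after seeing the data), 0 were lower on either array. A limit of 1.5-fold gave 3 lower on the Tm-deposited array and 7 higher on the Tl-deposited array, and a limit of 4-fold left 1 higher (Mfge8, Tm-deposited array) and 0 in each other count. The change of Tyro3 on the Tm-deposited array turned to 1.13 with the median over its probes and to 3.82 with the other probe. On the Tl-deposited array it turned to 1.10 and 3.29, respectively, and to 0.079 when no scaling was applied. The cause was not tested. Among the 9 genes it holds, the authors' table gave 3 and 1 for its Tm column and 4 and 1 for its Tl column, as its columns are exchanged. The median change of all genes (0.22 and 0.15 on the Tm- and Tl-deposited arrays) was -0.16 and -0.05 with the detected-probe percentile, 0.32 and 0.30 after quantile normalization, 0.86 and 0.65 with the median, 0.52 and 1.32 without scaling, and 0.12 and 0.03 with normexp. No paired analysis was possible because each stage has 1 array, and the t-test of the study's statistics section could not be applied for the same reason.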
